A study of Mus musculus with 3 samples.

Results

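The genes that build ribosomes were read in gastrocnemius, a calf muscle of mainly fast fibres, after a switch that raises Akt signalling in muscle. The set holds 50 genes, listed by symbol: the subunits of RNA polymerase I, its initiation factors, and nucleolar proteins that modify, cut and fold ribosomal RNA and assemble it into the small and the large subunit. All probe sets that the platform annotation gives to these symbols alone were taken. That gave 103 probe sets for 48 of the 50 genes, among 11092 genes compared in all. Npm3 had no probe set in the annotation used, and Mrto4 was named only on a probe set shared with 2 pseudogenes, so neither has a value.

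The groups were tamoxifen for 48 h, tamoxifen for 24 h and, as the control, oil for 24 h. Per the labels, mice in every group were of the strain C57BL/CD1 with the genotype Akt_Cre transgenic, and they carried Akt fused to an oestrogen-binding domain, made in skeletal muscle only and stabilised when tamoxifen is given. The age and sex of the mice, the promoter of the transgene and the meaning of Cre in the genotype label were not given in the sources used here. There was 1 Affymetrix array for each group, hybridised with RNA from a pool of 3 to 4 animals, so no value has a replicate error, no test between groups was possible and no p-value is given. A pool stands for its animals only as their average, no 48 h oil array was analysed, and tamoxifen in mice without the fusion was not analysed here, so effects of Akt, of tamoxifen itself and of time cannot be told apart at 48 h, nor those of Akt and tamoxifen at 24 h.

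Ribosome production starts in the nucleolus, where RNA polymerase I copies the ribosomal DNA into a long precursor. Small nucleolar particles then guide its methylation and pseudouridylation, a large processome trims and folds the small-subunit part, and a separate chain of factors matures the large subunit before export to the cytoplasm. In skeletal muscle this machinery is known to be engaged during growth, and the Akt and mTOR pathway is known to act on polymerase I through its initiation factors.

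The deposited values were linear intensities per probe set, which were scaled to the same median over probe sets in the upper part of the intensity range. Only probe sets with a mean percentile rank of at least 0.5 over the arrays were kept, and values below an intensity of 4.05 were set to that floor. Where a gene had several kept probe sets, the one with the highest mean rank was read and is called the brightest below. Intensities depend on the probes, so levels are compared between arrays and not between genes. The words higher and lower refer to the direction of a ratio, and 2-fold is the size rule for a call. All 48 measured genes had at least 1 of 91 kept probe sets, so none was lost to the filter, and 12 dim probe sets were set aside.

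The labelled tissue matched its markers on all 3 arrays. The summed intensity of 7 skeletal muscle markers, most of them of fast fibres (Acta1, Ckm, Myh4, Myh1, Pvalb, Tnnt3 and Mylpf), was 64261 at 48 h of tamoxifen, 61894 at 24 h of tamoxifen and 64636 on oil. These markers lay high in the intensity range of the arrays, and saturation was not tested. Markers of some other cells differed between arrays. The smooth muscle markers Myh11 and Acta2 summed to 967 at 48 h and 882 at 24 h of tamoxifen, against 1708 on oil, and the neutrophil markers S100a8 and S100a9 summed to 41.1 and 94.2, against 146 on oil. The 3 satellite cell markers summed to 203 and 172, against 112 on oil. Of these, Cdh15 was 3.46-fold and 2.38-fold higher, whereas Pax7 had log2 ratios of -0.45 and -0.51 and Myf5 of -0.35 and 0.14. The 3 slow-fibre markers (Myh7, Tnnc1 and Tnni1) summed to 1939 and 2971, against 2858 on oil, and all 3 were lower at 48 h. Sums over 3 markers each were 330 and 476, against 366 on oil, for endothelium, 5936 and 5936, against 6749, for fibroblasts and 766 and 789, against 834, for macrophages. Single markers went against their list, among them Col1a1 of the fibroblasts, 2.26-fold and 1.76-fold higher. The 2 compared adipocyte markers summed to 519 and 758, against 603 on oil. S100b of Schwann cells read 30.7 and 32.1, against 43.0 on oil, and Alas2 of erythroid cells 38.4 and 35.7, against 39.1. No compared marker lay at the floor, and the part of these cells in the values below was not tested. In a whole-muscle extract, fewer cells of a type and less RNA per cell cannot be told apart.

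Against oil, no large shift of the machinery was seen at either time. On the brightest probe sets 2 factors passed 2-fold, both grouped below with small subunit assembly. Bysl (bystin, needed for maturation of the small subunit) was 2.33-fold higher at 48 h and 2.02-fold higher at 24 h. Its second kept probe set gave 1.61-fold and 1.40-fold. Rrp12, known from yeast as an export factor of pre-ribosomes, was 2.08-fold higher at 48 h and 1.17-fold higher at 24 h, on a single kept probe set. Each ratio past 2-fold fell short of that size under at least 1 other way of processing. At 48 h these 2 genes were the members at least 2-fold higher, 2 of 48 (4.17%), against 3.72% of all genes compared, and no member was 2-fold lower, against 2.71% of all genes. At 24 h Bysl was the only member at least 2-fold higher, 1 of 48 (2.08%) against 2.35% of all genes, and again none was 2-fold lower, against 2.48% of all genes. These shares lie near those of all genes, so the counts at 2-fold are no result about the group.

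**Figure D1:**
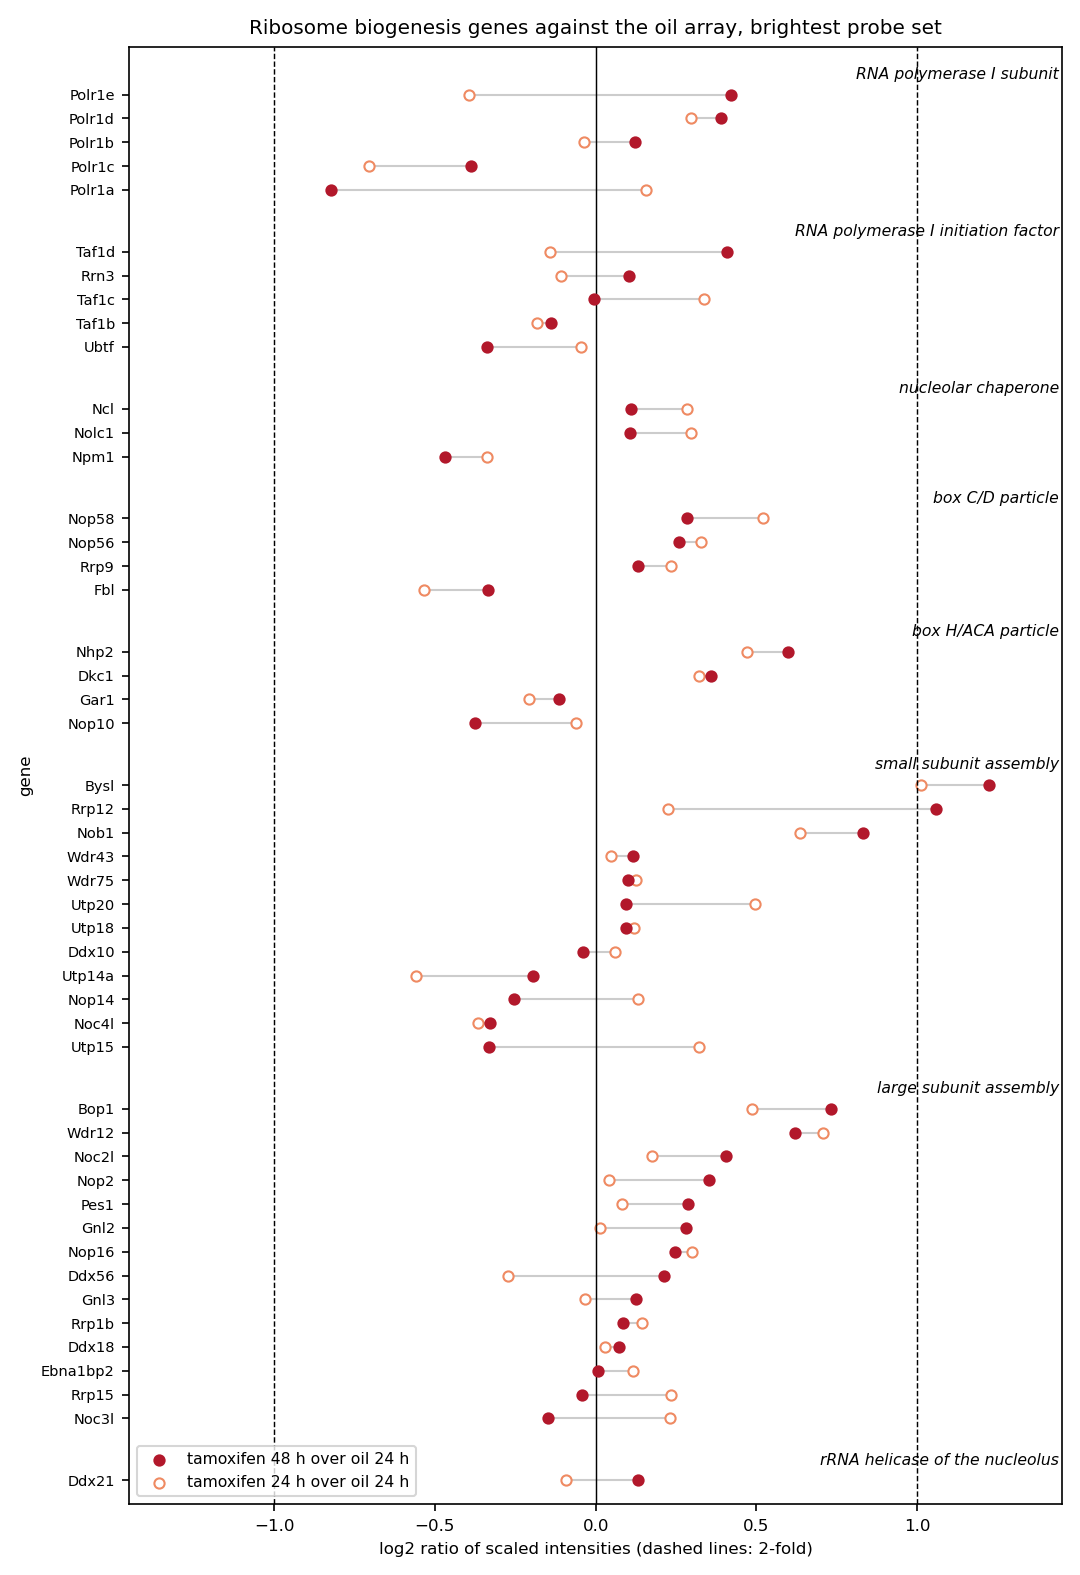
Log2 ratio of scaled intensity to the oil array (horizontal axis) for the 48 measured genes (rows, grouped by role), on the brightest probe set: filled points are tamoxifen 48 h over oil, open points tamoxifen 24 h over oil, and dashed lines mark 2-fold. Most points lie within 0.5 of zero; Bysl and Rrp12 pass the upper line at 48 h, and Polr1a is the lowest at 48 h at -0.82.

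The promoter sequences of members with the larger ratios are shown with that of Rrn3, since Rrn3 is the initiation factor through which growth signals are known to reach polymerase I and its window was the one with 2 E-boxes. The sequences are RefSeq's for the mouse build GRCm38.p6, each giving the 250 bases before an annotated start, 5′ to 3′ on the gene's own strand, and entries for 45 of the 50 symbols were found; Rrp12 and Bop1 were not among them. Capitals mark the E-box CACGTG, the sequence bound by Myc and Max and the same on both strands, and the GC box GGGCGG or its other strand CCGCCC, and no match in the printed windows overlaps another. For Wdr12, which has 3 listed starts, the window farthest upstream is printed.
Bysl, chr17:47611493-47611742, minus strand: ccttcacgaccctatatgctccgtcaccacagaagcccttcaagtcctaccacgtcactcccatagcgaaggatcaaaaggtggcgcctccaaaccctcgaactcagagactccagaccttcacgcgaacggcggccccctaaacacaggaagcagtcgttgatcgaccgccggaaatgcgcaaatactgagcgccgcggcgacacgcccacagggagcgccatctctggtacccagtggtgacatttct
Nob1, chr8:107425039-107425288, minus strand: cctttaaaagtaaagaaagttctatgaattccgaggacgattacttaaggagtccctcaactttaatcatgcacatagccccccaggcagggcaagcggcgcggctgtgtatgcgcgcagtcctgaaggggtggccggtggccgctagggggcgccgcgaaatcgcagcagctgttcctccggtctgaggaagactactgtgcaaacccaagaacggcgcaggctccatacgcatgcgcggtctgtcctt
Wdr12, chr1:60098501-60098750, minus strand: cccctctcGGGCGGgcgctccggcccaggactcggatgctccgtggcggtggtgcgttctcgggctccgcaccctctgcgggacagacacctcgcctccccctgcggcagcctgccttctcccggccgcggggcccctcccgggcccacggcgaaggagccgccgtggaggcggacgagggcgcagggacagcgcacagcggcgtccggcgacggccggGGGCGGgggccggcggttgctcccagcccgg
Nhp2, chr11:51619523-51619772, plus strand: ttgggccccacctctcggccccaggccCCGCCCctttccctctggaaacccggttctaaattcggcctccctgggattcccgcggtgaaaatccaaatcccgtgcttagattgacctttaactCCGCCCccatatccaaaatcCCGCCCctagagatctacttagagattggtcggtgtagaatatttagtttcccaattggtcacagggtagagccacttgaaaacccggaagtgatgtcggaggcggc
Rrn3, chr16:13780449-13780698, plus strand: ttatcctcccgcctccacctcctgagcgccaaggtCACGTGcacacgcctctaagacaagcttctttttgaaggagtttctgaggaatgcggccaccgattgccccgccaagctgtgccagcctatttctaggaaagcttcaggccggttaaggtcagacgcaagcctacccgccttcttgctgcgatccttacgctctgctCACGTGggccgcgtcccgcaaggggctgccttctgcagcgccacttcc
Neither motif was present in the printed windows of Bysl and Nob1, while that of Wdr12 held 2 GC boxes and that of Nhp2 held 3. The windows of the other listed starts of Wdr12 held neither motif. The full window of Bysl, which runs 50 bases past the start, did hold a GC box. The E-boxes of Rrn3 began 215 and 48 bases before the start. Over the full windows of 300 bases, which run 50 bases past the start, an E-box was found in 6 of 55 windows of the genes (10.9%; Nop2, Pes1, Rrn3, Utp18, Utp20 and Wdr43), against 7.15% of all 32851 windows in the table and 7.84% of those of protein-coding genes. In the 250 bases before the start alone, the order was the other way: 3 of 55 windows held an E-box (5.45%; Nop2, Rrn3 and Utp18), against 6.02% of all windows and 6.63% of those of protein-coding genes, so the E-box share of these genes depends on the window. A GC box was found in 40 of the 55 windows (72.7%), against 35.7% of all windows and 46.2% of those of protein-coding genes, and in 37 of 55 (67.3%) before the start alone, against 32.7% and 42.6%. The GC box was chosen after values had been seen, and a gene with several listed starts counts more than once. Windows of one gene overlap in part, a match is a description of these letters only, and a window without one shows nothing about a factor.

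For the whole group, log2 ratios were centred slightly above zero against oil. The median was 0.11 at 48 h, where the median of all genes compared was 0.01, and 0.12 at 24 h, where that of all genes was 0.04. Ratios above zero belonged to 32 of 48 members at 48 h (66.7%), against 50.6% of all genes, and to 32 of 48 at 24 h (66.7%), against 54.0% of all genes. Both comparisons use the one oil array, so a low reading there would move both. The excess over all genes at 24 h was lost at a rank filter of 0.75, where 35 members had a median of 0.081, against 0.085 for all genes compared.

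At a smaller size of 1.5-fold, 6 members were higher at 48 h (12.5%), against 11.7% of all genes, and 1 was lower (2.08%), against 10.7% of all genes. On their brightest probe sets, the higher members were Bysl, Rrp12, Nob1, Bop1, Wdr12 and Nhp2, and the lower one was Polr1a. The other kept probe sets of Polr1a gave log2 ratios of 2.24 and -0.84 at 48 h. At 24 h 3 members were 1.5-fold higher (6.25%), Bysl, Wdr12 and Nob1, against 9.57% of all genes, and Polr1c alone was 1.5-fold lower (2.08%), against 9.02% of all genes. The second kept probe sets of Bysl, Wdr12 and Polr1c gave log2 ratios of 0.48, -0.53 and -0.07 at 24 h. The share of higher members was thus close to that of all genes at 48 h and the share of lower members was smaller, without a test of the difference.

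**Figure D2:**
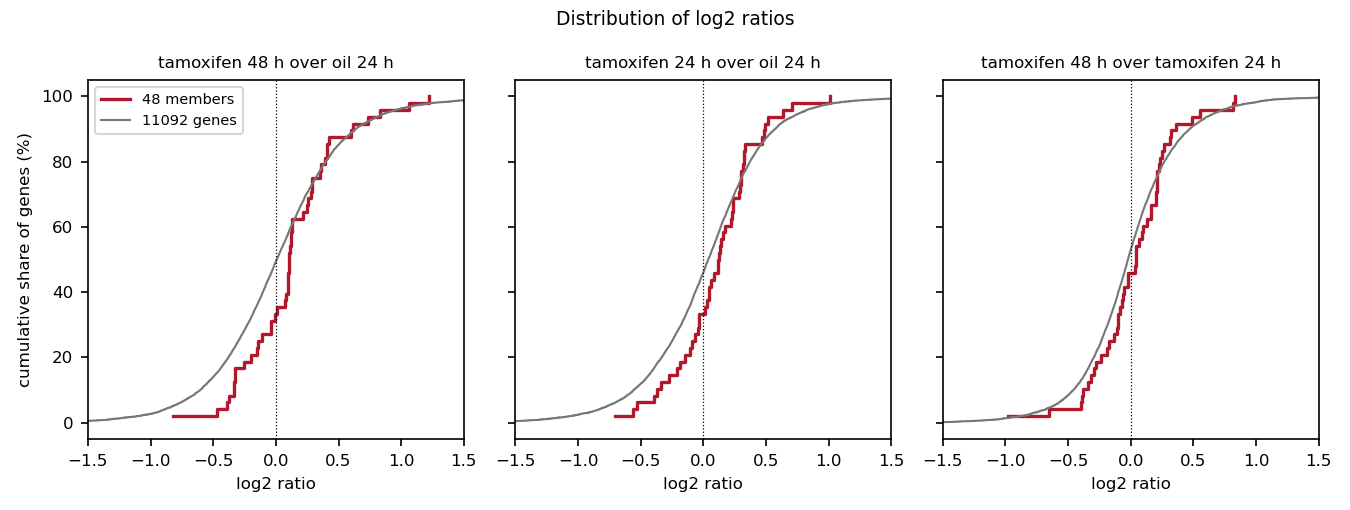
Cumulative share of genes (vertical axis, %) by log2 ratio (horizontal axis) for the 48 members (red) and all 11092 genes compared (grey), one panel per comparison. The red curve runs below the grey one over most of the range left of zero in each panel and meets it on the right, and the medians at 48 h over oil are 0.11 and 0.01.

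RNA polymerase I subunits did not move as a unit. Polr1d, a subunit shared with RNA polymerase III, read 1486 at 48 h and 1392 at 24 h of tamoxifen, against 1134 on oil, which is 1.31-fold and 1.23-fold higher. Its other 3 kept probe sets were also higher on both tamoxifen arrays, with log2 ratios of 0.42 to 0.72 at 48 h and 0.35 to 0.63 at 24 h. Polr1c, also shared with RNA polymerase III, lay lower, at 120.0 and 96.2 with tamoxifen for 48 h and 24 h, against 156.9 on oil. Its other kept probe set read 98.0 and 114.5, against 120.0 on oil, the same direction with log2 ratios of -0.29 and -0.07.

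Polr1a, which encodes the largest and catalytic subunit, could not be given a direction. Its brightest probe set read 48.0 at 48 h and 94.5 at 24 h of tamoxifen, against 84.9 on oil, a log2 ratio of -0.82 at 48 h and 0.16 at 24 h. Another kept probe set read 31.0 and 22.1, against 6.54 on oil, which is 4.74-fold and 3.38-fold higher, and the remaining one read 19.8 and 16.5, against 35.5 on oil, with log2 ratios of -0.84 and -1.10. Kept probe sets of this gene thus lay past 2-fold in opposite directions at 24 h. Polr1b, the other large subunit of the catalytic core, read 76.4 and 68.4, against 70.2 on oil, with log2 ratios of 0.12 and -0.04.

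Polr1e, a subunit specific to polymerase I, read 44.0 at 48 h and 25.03 at 24 h of tamoxifen, against 32.9 on oil. Its second probe set gave the opposite order, with 19.0 and 31.7, against 17.8 on oil. The log2 ratios at 24 h were -0.39 on one and 0.83 on the other, so its reading depends on the probe set. Across the 5 subunits the median log2 ratio was 0.12 at 48 h and -0.04 at 24 h.

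**Figure D3:**
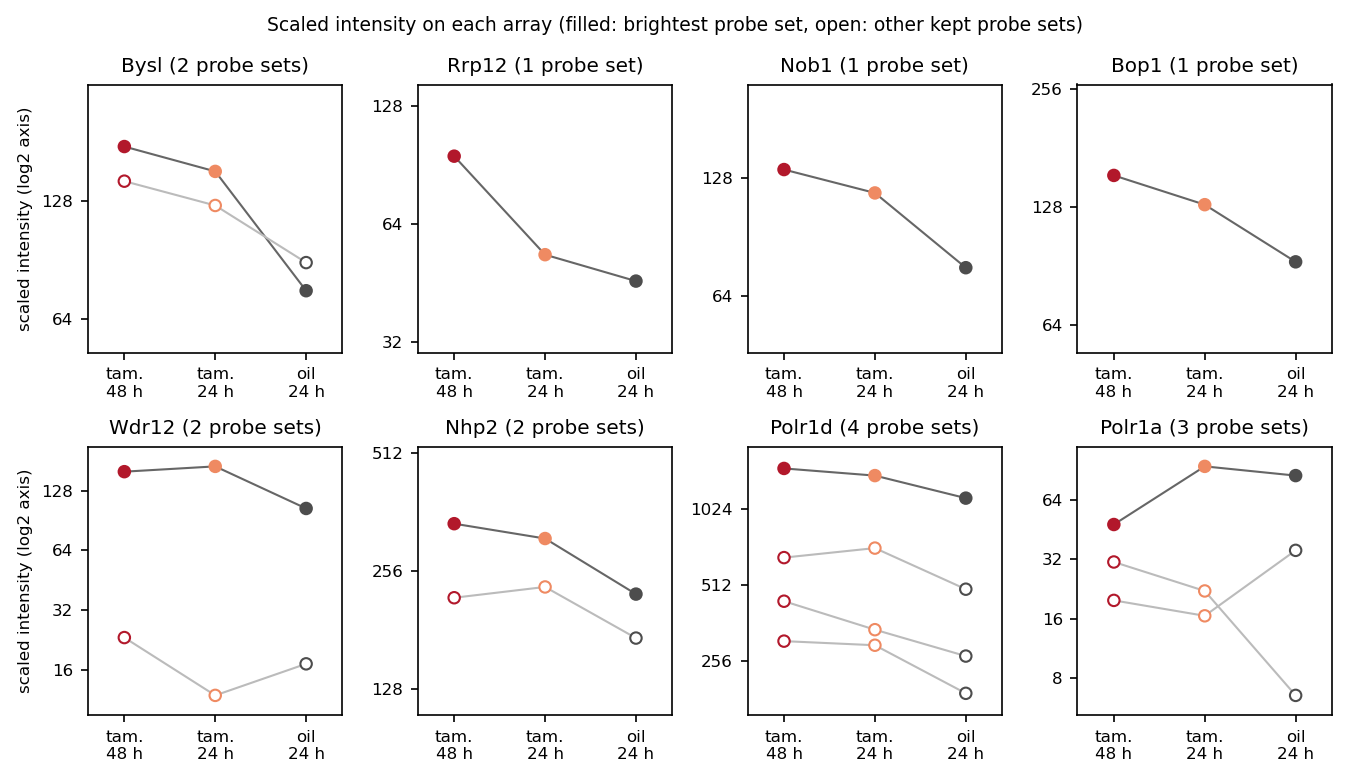
Scaled intensity (vertical axes, log2 scale) on the tamoxifen 48 h, tamoxifen 24 h and oil 24 h arrays for 8 members; each line is a kept probe set, filled points the brightest and open points the others. All probe sets of Bysl, Nhp2 and Polr1d are higher on both tamoxifen arrays than on oil, whereas those of Polr1a cross.

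The initiation factors of polymerase I stayed within 1.5-fold of oil on their brightest probe sets. Rrn3, which brings the polymerase to the promoter, read 132 at 48 h and 114 at 24 h of tamoxifen, against 123 on oil. Ubtf, the upstream binding factor that opens ribosomal DNA, read 72.9 and 89.3, against 92.1 on oil, and its second kept probe set read 20.1 and 13.9, against 26.6. All readings of Ubtf with tamoxifen were below oil, with log2 ratios from -0.94 to -0.05, although its brightest probe set at 24 h turned to 0.05 without scaling of the arrays.

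The remaining 3 factors belong to the selectivity complex that also holds the TATA-binding protein. Taf1b read 48.7 and 47.3, against 53.7 on oil, and Taf1c read 46.9 and 59.4, against 47.0 on oil. Taf1d read 43.3 and 29.5, against 32.6 on oil, with the log2 ratios of its 4 kept probe sets spanning -0.17 to 0.67 at 48 h and -0.27 to 0.53 at 24 h. Taf1b was thus below oil on both tamoxifen arrays, and Taf1c and Taf1d had no single direction. The median log2 ratio of the 5 initiation factors was -0.0049 at 48 h and -0.11 at 24 h.

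Of the abundant nucleolar chaperones, nucleolin and nucleophosmin went different ways on their brightest probe sets. Ncl, which encodes nucleolin, a protein of rRNA transcription and folding, read 883 at 48 h and 998 at 24 h of tamoxifen, against 819 on oil. Npm1, which encodes nucleophosmin, a histone chaperone and shuttle of ribosomal particles, read 765 and 839, against 1059.6 on oil, so it was lower with log2 ratios of -0.47 and -0.34. The other kept probe sets tempered both statements: those of Ncl ran from -0.60 to 0.97 at 48 h, and the second one of Npm1 gave -0.11 at 48 h and 0.17 at 24 h.

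Nolc1, a chaperone of small nucleolar particles also called Nopp140, gave a steadier reading. Its brightest probe set read 84.9 and 96.8, against 78.8 on oil, and the other 2 were higher by log2 ratios of 0.47 and 0.63 at 48 h and of 0.51 and 0.73 at 24 h. All 3 kept probe sets of Nolc1 were therefore above oil at both times.

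In the box C/D particle, which methylates rRNA, the scaffold proteins were higher and the enzyme was lower than oil. Nop56 read 171 at 48 h and 179 at 24 h of tamoxifen, against 143 on oil, and its second kept probe set gave log2 ratios of 0.31 and 0.37. Nop58, its partner, read 45.4 and 53.4, against 37.2 on oil, which is 1.22-fold and 1.43-fold higher on its single kept probe set. Fbl, which encodes fibrillarin, the methyltransferase, read 144 and 125, against 181 on oil, with log2 ratios of -0.33 and -0.53. Its other probe set read 135.7 and 128.6, against 138.0 on oil, lower by 0.02 and 0.10 on the log2 scale, so most of the difference rested on 1 probe set. Rrp9, a protein of the particle that guides the first cleavages, was 1.09-fold higher at 48 h and 1.18-fold higher at 24 h.

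The box H/ACA particle, which turns uridine into pseudouridine, was split as well. Nhp2, an RNA-binding core protein, read 338 at 48 h and 310.0 at 24 h of tamoxifen, against 224 on oil, which is 1.51-fold and 1.39-fold higher. The second probe set of Nhp2 read 219 and 233, against 173 on oil, so both probe sets of this gene lay above oil at both times. Nop10, a small core protein, lay below oil on both of its probe sets, at 1419 and 1764, against 1842 on oil, for the brightest and at 528 and 783, against 787, for the other. Its ratios were -0.38 and -0.58 in log2 at 48 h and -0.06 and -0.01 at 24 h.

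Dkc1, which encodes dyskerin, the pseudouridine synthase, had probe sets in conflict. The brightest read 190.4 and 185.3, against 148.4 on oil, while the other 2 read 82.7 and 114.7, against 153.4, and 86.9 and 73.9, against 127.8. The log2 ratios thus spanned -0.89 to 0.36 at 48 h and -0.79 to 0.32 at 24 h, and no direction can be given. Gar1, on 1 kept probe set, read 114.6 and 107.5, against 124.1 on oil.

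Small subunit assembly held the 3 highest ratios at 48 h, those of Bysl, Rrp12 and Nob1. The role groups were set after values had been seen, and Rrp12, an export factor of pre-ribosomes, was placed in this one, so their place in 1 group is no separate result. Bysl read 176 at 48 h and 152 at 24 h of tamoxifen, against 75.5 on oil, and its second kept probe set read 144 and 125, against 89.1 on oil. Both probe sets lay above oil at both times, but the second stayed within 2-fold (1.61-fold and 1.40-fold), and the mean of both fell short of the 2-fold rule, at 0.96 in log2 at 48 h and 0.75 at 24 h. Its brightest probe set at 24 h also fell short with quantile normalization (0.98 in log2) and with cyclic loess (0.94). Nob1, the endonuclease that makes the last cut of small-subunit rRNA, read 134 and 117, against 75.5 on oil, which is 1.78-fold and 1.55-fold higher. Rrp12 read 95.6 and 53.6, against 45.9 on oil, and the difference from oil was larger on the 48 h array. Nob1 and Rrp12 each rest on a single kept probe set. Without scaling of the arrays, the log2 ratio of Rrp12 at 48 h was 0.998, just under the 2-fold rule.

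The other 9 small-subunit factors lay between -0.33 and 0.11 in log2 at 48 h and between -0.56 and 0.50 at 24 h. Utp20, a large scaffold of the processome, was 1.07-fold higher at 48 h and 1.41-fold higher at 24 h. Utp14a, a helicase-binding processome protein, lay lower, at 118 and 92.1, against 136 on oil. Noc4l was lower on its brightest probe set, with log2 ratios of -0.33 and -0.37, and 1 of its other 3 probe sets was higher at both times. Utp18, Wdr43, Wdr75 and the RNA helicase Ddx10 lay between -0.04 and 0.13 in log2 on their brightest probe sets at both times, and Nop14 was at -0.25 and 0.13. The median log2 ratio of the 12 small-subunit factors was 0.09 at 48 h and 0.13 at 24 h.

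Among large-subunit factors the complex of Pes1, Bop1 and Wdr12, which is needed for the maturation of large-subunit rRNA, lay above oil on the brightest probe sets. Bop1 read 154 at 48 h and 129.5 at 24 h of tamoxifen, against 92.6 on oil, which is 1.66-fold and 1.40-fold higher on 1 kept probe set. Wdr12 read 160.2 and 170.4, against 104.4 on oil, which is 1.53-fold and 1.63-fold higher. Pes1 read 89.9 and 77.9, against 73.6 on oil, with log2 ratios of 0.29 and 0.08, and its second probe set read 22.0 and 18.8, against 12.1 on oil, with ratios of 0.86 and 0.63. The exception among the kept probe sets of these 3 genes was the second one of Wdr12, a dim one that read 23.2 and 11.8, against 17.1 on oil, a log2 ratio of 0.44 at 48 h and -0.53 at 24 h.

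Of all 14 large-subunit factors measured, with these 3 included, 12 were above oil at 48 h (85.7%), against 50.6% of all genes, and 12 at 24 h (85.7%), against 54.0% of all genes. The role groups were set after values had been seen, so these shares are no independent result. Some of the ratios counted as above oil were close to zero: Ebna1bp2 (0.01) and Ddx18 (0.07) at 48 h, and Gnl2 (0.01) and Ddx18 (0.03) at 24 h. Another kept probe set of Ddx18 was below oil, at -0.32 and -0.16. The median log2 ratios of the 14 factors were 0.23 and 0.13, against 0.01 and 0.04 for all genes. Nop2, an rRNA methyltransferase, read 101 at 48 h and 81.6 at 24 h of tamoxifen, against 79.2 on oil. Noc2l, a nucleolar transport factor, was 1.32-fold and 1.13-fold higher, and its second probe set gave 1.32-fold and 1.20-fold. Its partner Noc3l read -0.15 and 0.23 in log2. Gnl3, which encodes nucleostemin, a GTP-binding protein of the nucleolus, was at 0.12 and -0.03 in log2. The brightest probe sets of Rrp1b, Ddx18 and Ebna1bp2 lay between 0.01 and 0.14 at both times. Gnl2, a related GTP-binding protein, was 1.21-fold higher at 48 h and 1.01-fold higher at 24 h, while a dim probe set of it read 20.5 and 18.4, against 36.2 on oil. Nop16, at 134.4 and 139.5 against 113.3 on oil, and Rrp15 and Ddx56, between -0.27 and 0.23, complete the large-subunit factors. Ddx21, a nucleolar helicase that acts with polymerase I, was at 0.13 and -0.09 in log2, and its second probe set at 0.65 and 0.10.

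Kept probe sets of a member gave the same direction about as often as those of any gene. Of 29 members with more than 1, 17 had all of them on the same side of oil at 48 h (58.6%), against 56.2% of 5001 such genes in the whole table, and 14 at 24 h (48.3%), against 49.4%. At 48 h 12 had all of them above oil at 48 h (41.4%), against 28.0% of such genes, and 5 had all of them below (17.2%), against 28.2%. At 24 h the counts were 10 above (34.5%), against 26.0%, and 4 below (13.8%), against 23.4%. Those wholly above oil at 48 h were Bysl, Ddx21, Ebna1bp2, Nhp2, Noc2l, Nolc1, Nop56, Pes1, Polr1d, Polr1e, Wdr12 and Wdr75, and those wholly below were Fbl, Nop10, Npm1, Polr1c and Ubtf. At 24 h Bysl, Ddx10, Nhp2, Noc2l, Noc3l, Nolc1, Nop56, Pes1, Polr1d and Wdr43 were wholly above, and Fbl, Nop10, Polr1c and Ubtf wholly below. Several of these probe sets share a source transcript, and larger numbers of probe sets make agreement less likely.

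Counted by probe set, 3 of the 91 kept were at least 2-fold from oil at 48 h (3.30%), against 7.14% of all kept probe sets. They belonged to Bysl, Rrp12 and Polr1a, and all 3 were higher. At 24 h there were also 3 (3.30%), against 7.32% of all kept probe sets, 1 of Bysl and 1 of Polr1a higher and 1 of Polr1a lower. The pooled standard deviation between probe sets of one member was 0.52 in log2 at 48 h and 0.48 at 24 h, against 0.41 and 0.49 over all genes. This spread is between probe sets read on the same arrays and does not measure variation between mice. Its source was not tested. Of the 12 dim probe sets below the filter, 5 lay past 2-fold from oil at one time or both, in either direction. The share among all dim probe sets was not counted, so this number is no result about the members. That of Bop1 read 18.1 at 48 h and lay under the floor on the other arrays (at least 4.48-fold higher at 48 h). That of Ebna1bp2 was 1.64-fold higher at 48 h and 2.44-fold higher at 24 h. That of Utp14a lay under the floor at 48 h and read 16.6 at 24 h, against 15.6 on oil (at least 3.87-fold lower at 48 h). One of Taf1d read 19.4 at 48 h and lay under the floor at 24 h, against 10.06 on oil (at least 2.49-fold lower at 24 h), and that of Ddx18 lay under the floor at both times, against 10.04 on oil (at least 2.48-fold lower). These readings lie near the floor and show no common direction.

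**Figure D4:**
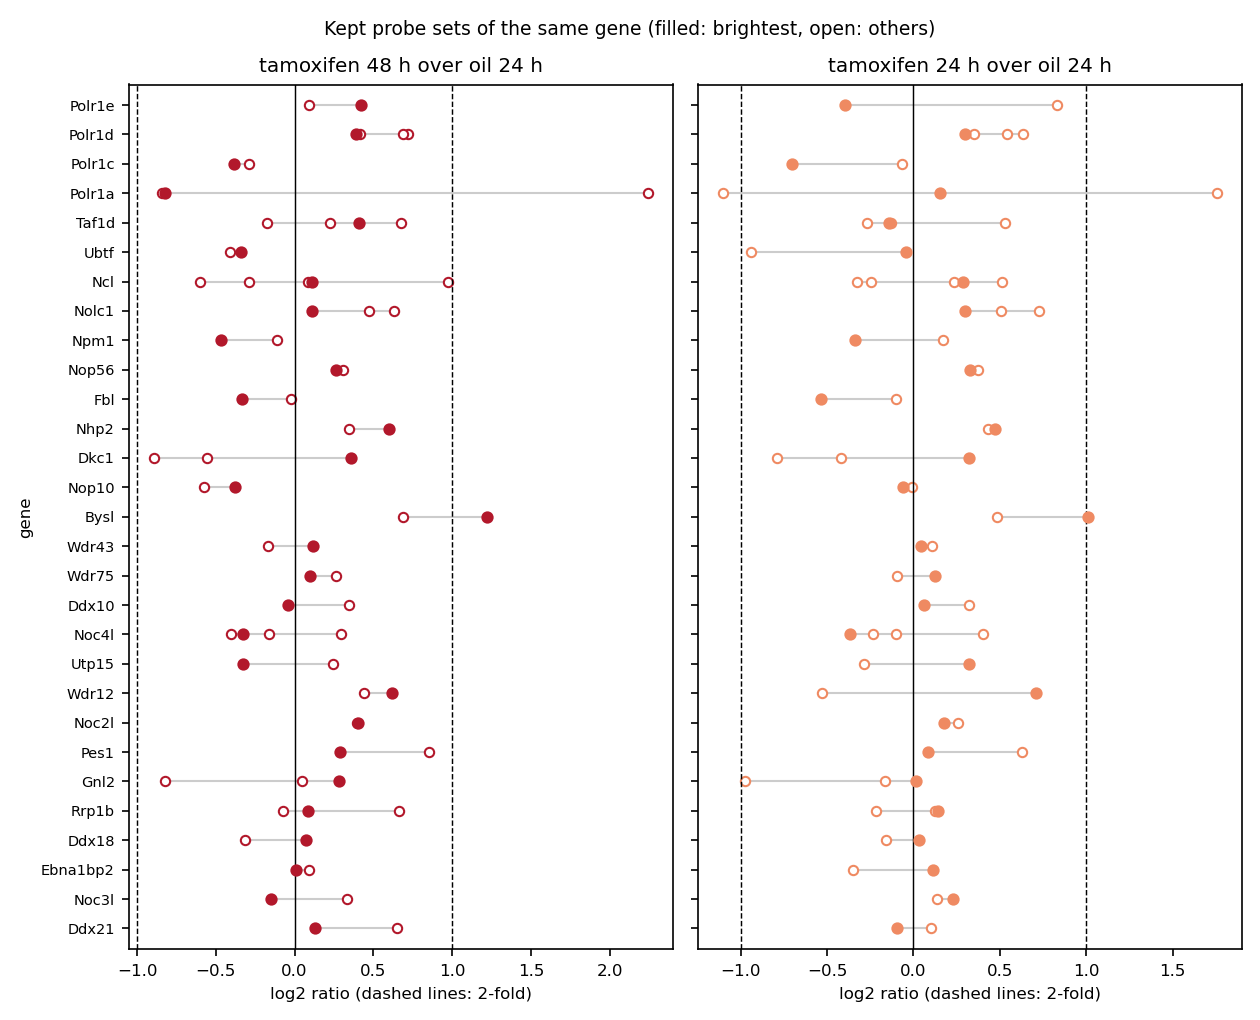
Log2 ratio to oil (horizontal axes) of every kept probe set for the 29 members with more than 1, at 48 h (left) and 24 h (right) of tamoxifen; filled points are the brightest probe set, open points the others, dashed lines 2-fold. The probe sets of Polr1d, Bysl and Nhp2 all lie right of zero in both panels, and those of Polr1a span -0.84 to 2.24 at 48 h.

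Between the tamoxifen arrays, 48 h against 24 h, no member was 2-fold different, against 1.80% of all genes higher and 1.42% lower, and no kept probe set of a member passed 2-fold, against 5.45% of all kept probe sets. At 1.5-fold, Rrp12 (1.78-fold) and Polr1e (1.76-fold) were higher at 48 h, 2 of 48 (4.17%) against 6.91% of all genes. Polr1a, at a log2 ratio of -0.98, and the processome protein Utp15, at -0.65, were lower, 2 of 48 (4.17%) against 5.84% of all genes. Utp15 read 29.9 at 48 h and 47.0 at 24 h, with 37.6 on oil, and its second probe set went the other way, at 32.0 and 22.2, with 27.0 on oil. Of these 4 genes, Rrp12 had no second probe set, and Polr1a, Polr1e and Utp15 each had a kept probe set with the opposite sign. Ratios above zero belonged to 26 of 48 members (54.2%), against 46.9% of all genes, with a median of 0.04 against -0.02, and the sign of this median turned negative without scaling, at -0.11, where the median of all genes was -0.18.

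A further 104 genes of the same pathway that are not in the set were read in the same way, and 99 of them were compared. At 48 h 2 were at least 2-fold higher (2.02%, against 3.72% of all genes), Nol12 (2.13-fold), a nucleolar RNA-binding protein, and Rrp8 (2.10-fold), a nucleolar methyltransferase-like protein. At 48 h 1 was at least 2-fold lower (1.01%, against 2.71% of all genes), Nol6 (2.03-fold), a processome protein. Nol12 read 393 at 48 h and 307 at 24 h of tamoxifen, against 185 on oil, and Rrp8 read 75.5 and 64.2, against 36.0 on oil. Nol6 read 33.8 and 45.4, against 68.7 on oil. None of the 99 was 2-fold different from oil at 24 h, against 2.35% of all genes higher and 2.48% lower. Their median log2 ratio was 0.05 at 48 h and 0.07 at 24 h, and 53 of 99 lay above zero at 48 h (53.5%, against 50.6% of all genes) and 58 of 99 at 24 h (58.6%, against 54.0%).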

How the data were processed

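Gastrocnemius RNA was measured on 3 Affymetrix arrays, 1 for each group. The authors deposited a linear intensity for every probe set on every array; their summary method, background correction and scaling were not given in the sources used here. Of 45101 probe sets, 64 controls were left out. Of the rest, 34945 had 1 gene in the platform annotation, 932 had several and 9160 were absent from it; symbols were updated by Entrez identifier to the RefSeq table of GRCm38.p6. All 48 measured members carried their symbol in the annotation itself. Scaling gave the arrays equal medians over 21804 kept probe sets (factors of 1.05 for tamoxifen 48 h, 0.944 for tamoxifen 24 h and 1.01 for oil), floored at the 25th percentile of all values and put on the log2 scale. The kept probe set with the highest mean rank stood for its gene. The deposited medians were 13.8, 13.2 and 15.2 in the same order; precision is limited by having so few arrays. Nothing was tested between groups, since each holds 1 array.

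The members, the lists and the rules were chosen with earlier results of these data known, and the role groups and the GC box were set after values had been seen. Values on each array are given for members at least 1.5-fold different in any comparison, members whose kept probe sets lie past 2-fold in opposite directions and a fixed set of core members; other members given array values (Gar1, Gnl2, Nolc1, Nop10, Nop16, Utp14a and, on a dim probe set, Ddx18) and the dim probe set of Ebna1bp2 were added after their values had been seen. Alternatives changed the scaling, the filter, the floor and the choice of probe set. Steps ran in Python 3.11.15 with pandas 2.3.3, and cyclic loess in limma 3.58.1; the calculation was tested on simulated data.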

Additional observations from a re-analysis of the deposited data

Results flagged for a closer look

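For 3 genes the tamoxifen 24 h and 48 h arrays lay on opposite sides of oil and at least 1.5-fold apart from each other. The log2 ratio of 48 h over 24 h was -0.98 for Polr1a, 0.81 for Polr1e and -0.65 for Utp15. With 1 array at each time the difference was not tested, and each of these genes had another kept probe set with the opposite sign for 48 h over 24 h.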

How the results depend on the processing

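The median log2 ratio of the members stayed above zero against oil under all 10 alternatives, between 0.05 and 0.12 at 48 h and between 0.08 and 0.22 at 24 h. Some alternatives could not change any member value: a rank filter of 0.25, no filter, and floors at the 10th and 50th percentile. All brightest probe sets of the members lay above these limits, so the unchanged values there are no support. Less the median of all genes, the median of the members was 0.06 to 0.12 at 48 h and -0.0034 to 0.12 at 24 h. The negative value came at a rank filter of 0.75, where the excess at 24 h was gone. Members at least 2-fold higher at 48 h numbered 1 in place of 2 with unscaled values (Bysl), at a rank filter of 0.75 (Bysl, with 35 members compared and Rrp12 not among them) and with the mean of all kept probe sets (Rrp12). Among all genes, those at least 2-fold higher there were 357 of 11092, 205 of 6760 and 395 of 11092 in the same order. At 24 h the count was 0 in place of 1 with quantile normalization, with cyclic loess and with the mean of all kept probe sets, where the log2 ratio of Bysl was 0.98, 0.94 and 0.75. Of 11092 genes, 311, 295 and 242 were at least 2-fold higher at 24 h in the same order. For 48 h over 24 h, unscaled values gave a median of -0.11 in place of 0.04 and 1 member at least 2-fold lower in place of 0, Polr1a at -1.13. There the median of all genes moved to -0.18, and 249 of 11092 genes were at least 2-fold lower. The median of the members was also below zero, at -0.04, when only plain _at probe sets were read, with 42 members compared and a median of all genes of -0.03. Against oil, unscaled values moved the median of all genes to -0.05 at 48 h and 0.13 at 24 h. Members above zero at 24 h numbered 29 of 48 in place of 32 with quantile normalization and with cyclic loess, against 53.2% and 51.7% of all genes. Unscaled they numbered 37 of 48, against 62.9% of all genes. Counted by kept probe set of the members, 54 of 91 lay above zero at 24 h (59.3%) and 58 of 91 at 48 h (63.7%). The same share over all kept probe sets was not counted, so these numbers are no result about the group. Among all genes, higher ones made up 57.8% of the 2-fold calls at 48 h (49.2% unscaled, 47.3% without a filter, 68.3% at a rank of 0.75) and 48.7% at 24 h (63.8% unscaled, 60.0% with quantile normalization, 36.8% at a rank of 0.25, 35.9% without a filter, 63.2% at 0.75). For 48 h over 24 h that share was 56.0%, against 29.3% unscaled and 43.0% with quantile normalization. Reading the mean of all kept probe sets gave Polr1a 0.19 at 48 h in place of -0.82. Of 717 recomputed ratios of the named members, 711 stayed on their side of 2-fold, and no member past 2-fold changed sign. This share was largely fixed in advance, since most of these ratios lay far from 2-fold. The main ratios past 2-fold were those of Bysl at both times and of Rrp12 at 48 h, and each fell short under at least 1 alternative. Signs did change within 2-fold, as for Dkc1 at 48 h (0.36 to -0.36) and Polr1e for 48 h over 24 h (0.81 to -0.74). The causes were not tested. No paired analysis was possible because each group holds 1 array.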
